A study of Mus musculus with 111 samples.

Results

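The DNA replication genes described here are 52 named genes of the mouse, out of 36088 genes in the deposited table, chosen by name to cover the steps of genome copying from origin recognition to S phase control. Polyadenylated RNA was sequenced from single 2-cell embryos of strain B6129F1 to ask what changes when Nr5a2, an orphan nuclear receptor, is knocked down. In the knockdown arm, germinal vesicle oocytes, which are fully grown and arrested before the first meiotic division, received a set of 2 siRNAs against Nr5a2 at 20 µM each together with 150 ng/µl of an injection marker, H2B-rsEGFP RNA. In the control arm, oocytes received control siRNAs with 150 ng/µl of H2B-EGFP RNA, so the arms also differed in the marker. Oocytes of both arms stayed under dbcAMP, which keeps meiosis arrested, for 5 hours and then matured during 12 hours, after which they were fertilized in vitro and grown in KSOM medium. There were 55 knockdown and 56 control embryos from 3 experiments, with 16 knockdown and 24 control embryos in experiment 1, with 16 knockdown and 7 control embryos in experiment 2 and with 23 knockdown and 25 control embryos in experiment 3. The siRNAs entered the oocyte, so RNA made before fertilization was exposed to them as well as RNA made by the embryo. Each library held both cells of 1 embryo, so a change in 1 of them and a smaller change in both cannot be told apart.

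Replication starts when the origin recognition complex (Orc1 to Orc6), Cdc6 and Cdt1 load the Mcm2 to Mcm7 helicase on DNA, a step called licensing that geminin (Gmnn) blocks by holding Cdt1. Cdc45 and the GINS complex then turn the helicase on, the Rfc loader places the Pcna clamp, and the primase and polymerases alpha, delta and epsilon copy the strands while RPA covers single-stranded DNA and Fen1 and Lig1 finish the lagging strand. Ribonucleotide reductase (Rrm1, Rrm2), Tyms and Tk1 supply the deoxynucleotides, and E2f1, the cyclins E and A with Cdk2, and the checkpoint kinase Chek1 govern S phase. A mouse 2-cell embryo copies its genome while RNA stored by the oocyte is being degraded and the zygotic genome becomes active.

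In somatic cells many of these genes are known targets of E2F factors, so the letters of E2F sites were counted in RefSeq promoter windows (GRCm38.p6). Each window runs from 250 bases before to 50 after a start site. These start sites can differ from the gene starts of the GENCODE positions given below, as they do for Tk1 and Cdc6. A window was matched for 42 of the 52 members. At least 1 of the words TTCCCGC (both middle letters C), then TTCGCGC (C before G), then TTGCCGC (G before C), then TTGGCGC (both middle letters G) stood on either strand, with overlaps counted, in 26 of these 42 members (61.9%) and in 10.9% of all 27025 genes with a window. The 2 windows below show the range, Mcm6 with 5 matches in capitals and Tk1, which fell in knockdown embryos, with none. The Mcm6 window lies at chr1:128359656-128359955 and the Tk1 window at chr11:117825965-117826264, both on the minus strand and both written 5′ to 3′.
Mcm6: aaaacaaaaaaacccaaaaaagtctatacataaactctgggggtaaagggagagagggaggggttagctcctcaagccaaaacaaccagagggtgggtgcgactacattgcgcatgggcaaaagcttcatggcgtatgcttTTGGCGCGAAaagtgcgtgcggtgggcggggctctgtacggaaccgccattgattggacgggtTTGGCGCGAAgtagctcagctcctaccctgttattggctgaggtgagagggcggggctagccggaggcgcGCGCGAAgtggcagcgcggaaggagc
Tk1: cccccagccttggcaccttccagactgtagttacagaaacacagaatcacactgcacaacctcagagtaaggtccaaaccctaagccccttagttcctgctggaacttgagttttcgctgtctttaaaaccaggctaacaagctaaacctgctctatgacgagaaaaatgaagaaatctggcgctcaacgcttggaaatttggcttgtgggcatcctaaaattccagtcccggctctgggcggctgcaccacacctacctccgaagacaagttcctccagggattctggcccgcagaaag
The letters TCAAGGNCA, the site that nuclear receptors of the NR5A family bind, stood on either strand in 1 of the 42 members with a window (2.38%, Rpa2) and in 1.86% of all genes with a window. CCAAT on either strand stood in 59.5% of the members with a window and in 41.1% of all genes with a window. Some genes had more than 1 window and were counted once, if any window held the letters. These matches are counts of letters and do not show binding.

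Estimated counts per library totalled 4.51 M in the median knockdown embryo and 4.94 M in the median control embryo, and ran from 1.95 to 21.2 M over all libraries. Nr5a2 had a median of 47.0 CPM (counts per M of the library, with library sizes scaled by TMM) in knockdown embryos, from 12.9 to 119, against 103 CPM in control embryos, from 33.4 to 232. It fell by 1.16 on the log2 scale (SE 0.12; edgeR quasi-likelihood test, adjusted p = 4.8e-12), and 53 of 55 knockdown embryos lay below the control median of their experiment. Of 13 protein-coding transcripts of the mitochondrial genome, 6 were called higher and 0 lower in knockdown embryos, and their share of all counts was 7.97% ± 2.27 (SD, n = 55) in knockdown and 7.38% ± 2.00 (SD, n = 56) in control embryos. The mean shares in knockdown and control embryos differed most in experiment 3, at 8.71% and 6.84%. They were 8.71% and 8.41% in experiment 1 and 6.16% and 5.81% in experiment 2. In knockdown embryos 5, 8 and 15 of experiment 3 the median correlation with all other libraries was 0.70 or lower, against at least 0.712 in every other embryo. All 9 oocyte markers and all 7 markers of the 2-cell stage were detected, and edgeR, limma-voom and DESeq2 called 0 of them and put none under an unadjusted p of 0.05. Of 12 cumulus cell markers 6 had a median of 0 and 3 had counts enough to be tested. Of these 3, 0 were called and 0 had an unadjusted p under 0.05 by any of these tools. The cumulus list was not absent, since its marker Amhr2 had a median of 87.5 CPM in knockdown and 91.9 CPM in control embryos. The next highest was Tnfaip6, with medians of 4.88 and 4.84 CPM. Of 5 sperm markers, whose sum was at most 7.45 CPM, none had counts enough to be tested.

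All 52 members were detected and passed the low-count filter, and their levels spanned more than 2 orders of magnitude per length of transcript. Levels between genes are compared in TPM (transcripts per M), computed here from the annotated lengths. The highest level was that of Ccna2, cyclin A2, with 785 ± 228 TPM (SD, n = 55) in knockdown and 836 ± 208 TPM (SD, n = 56) in control embryos. The lowest was that of Pold1, the catalytic subunit of polymerase delta, with 2.6 ± 2.3 TPM in knockdown and 3.2 ± 3.4 TPM in control embryos. Pold1 was not counted in 8 embryos and Lig1, the ligase that seals the lagging strand, in 7, where 0 counts allow a level of up to 3 counts, or 0.411 to 1.17 CPM across these embryos.

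Members of the same complex had unequal RNA levels. Among the origin recognition genes the means ran from 96.1 TPM (Orc1) to 311 TPM (Orc3) in knockdown embryos and from 111.1 TPM (Orc1) to 337 TPM (Orc3) in control embryos. The Orc3 level per length rests almost wholly on a short processed transcript, described below, and is not a level of its protein-coding RNA. Among the licensing factors Gmnn was the highest, with 363 TPM in knockdown and 378 TPM in control embryos, above its target Cdt1 with 156 and 149 TPM and the loader Cdc6 with 62.5 and 51.5 TPM. The 6 subunits of the helicase, which sit in the complex in equal numbers, ran from 27.7 TPM (Mcm5) to 142 TPM (Mcm6) in knockdown and from 27.3 TPM (Mcm4) to 140 TPM (Mcm6) in control embryos. Of the helicase activators, Cdc45 reached 270 TPM in knockdown and 282 TPM in control embryos, while Gins2, a GINS subunit, had 33.2 and 24.3 TPM.

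The clamp Pcna, with 154 TPM in knockdown and 159 TPM in control embryos, stood above its loader subunits, of which Rfc3 was the lowest with 11.9 and 13.3 TPM. Among the polymerase genes the level did not follow the role in catalysis. Pold3, an accessory subunit of polymerase delta, had 181 TPM in knockdown and 195 TPM in control embryos, and Pola2, the regulatory B subunit of polymerase alpha, had 209 and 152 TPM. Pole, the catalytic subunit of polymerase epsilon, had 21.5 and 22.4 TPM. Rpa2, the middle subunit of RPA, had 186 TPM in knockdown and 202 TPM in control embryos, against 19.4 and 20.7 TPM for Rpa3, the smallest one. On the lagging strand Fen1, the flap endonuclease, had 30.8 TPM in knockdown and 32.9 TPM in control embryos, and Lig1 had 7.88 and 7.40 TPM. In nucleotide supply Tk1, thymidine kinase of the salvage route, had 167 TPM in knockdown and 235 TPM in control embryos, and Tyms, thymidylate synthase of the new synthesis route, had 34.3 and 39.2 TPM. Slbp, which binds the stem-loop of histone mRNA, had 358 and 386 TPM. Among the S phase genes Ccne2, cyclin E2, was the lowest, with 36.9 TPM in knockdown and 38.1 TPM in control embryos.

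**Figure D1:**
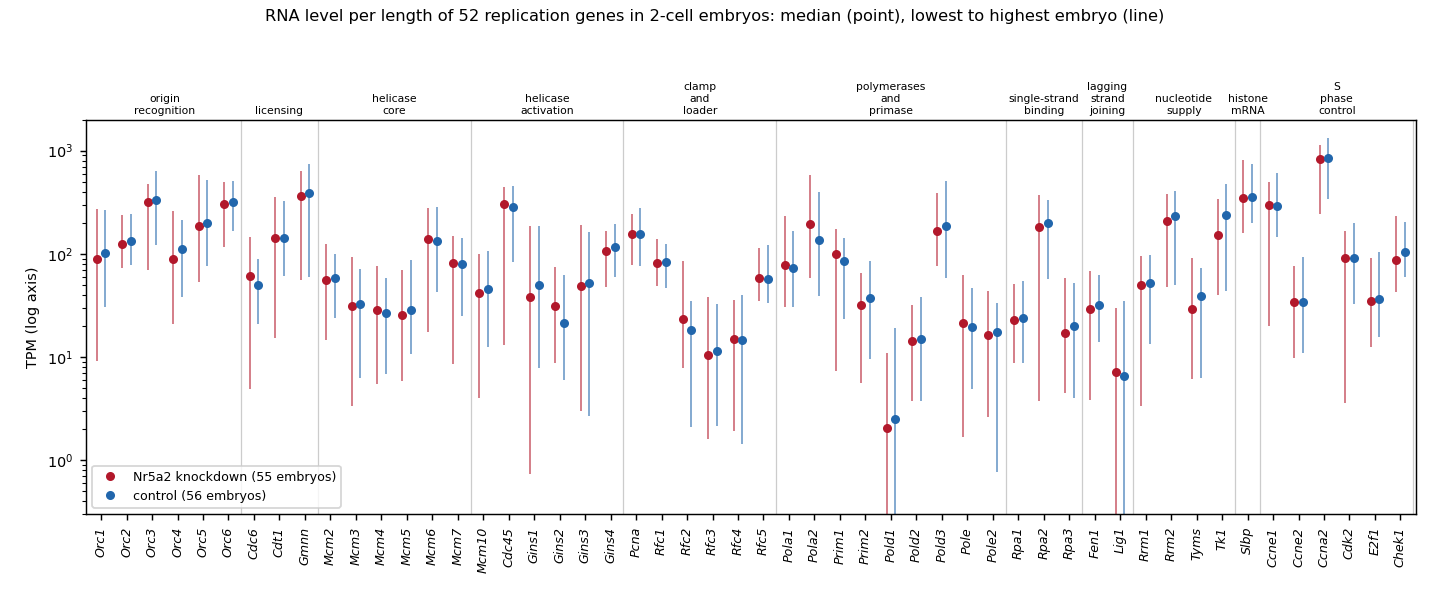
RNA level of the 52 members in TPM on a log axis, by replication step, with the 55 knockdown embryos in red left of the 56 control embryos in blue; points are medians and lines run from the lowest to the highest embryo. Ccna2 is highest and Pold1 lowest, and the lines of Pold1 and Lig1 that reach the axis end at 0.

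The transcript with the largest share of a gene's counts was protein-coding in 48 members and of another annotated kind in the other 4. A single transcript held over 90% of a member's counts in control embryos in 21 members and under 50% in 10. Orc3 is the clearest exception. Its counts came almost wholly from Orc3-205, a processed transcript of 5 exons and 848 bases, with 94.9% of them in knockdown and 94.8% in control embryos. Ccna2-203, annotated as a target of nonsense-mediated decay, held 63.0% of the Ccna2 counts in knockdown and 65.2% in control embryos. In Orc4 the largest share, 43.0% in knockdown and 45.7% in control embryos, went to the processed transcript Orc4-212, and in Chek1 31.3% and 33.6% went to Chek1-207, another processed transcript. These shares are estimates from reads that several transcripts can explain, and a level per length depends on them.

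Knockdown and control embryos differed little in these genes. Tk1 fell, Pola2 and Rfc2, a small subunit of the clamp loader, rose, and the other 49 members did not pass the test. That is 3 of 52 members, 1 lower and 2 higher, where 1.12% of all 13426 genes tested were called, 0.469% lower and 0.648% higher (edgeR quasi-likelihood test with experiment as a factor, adjusted p under 0.05). Of all called genes 58.0% were higher, a share of 45.7% when library totals replaced TMM scaling and 36.7% in the authors' batch-adjusted values. The members' median log2 fold change was -0.01, against 0.02 over all genes, with 25 positive and 27 negative, from -0.52 to 0.51. An unadjusted p under 0.05 was reached by 6 members (11.5%) and by 9.58% of all genes. Without the 3 embryos that stood apart edgeR called 0 of 52 members, with 7 at an unadjusted p under 0.05. It likewise called 0 without experiment 1, without experiment 3 and with the mitochondrial share as a further term, with 4, 6 and 6 members at an unadjusted p under 0.05. With library totals in place of TMM scaling only Tk1 was called, and both higher calls were lost, with edgeR adjusted p-values of 0.051 for Pola2 and 0.071 for Rfc2.

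**Figure D2:**
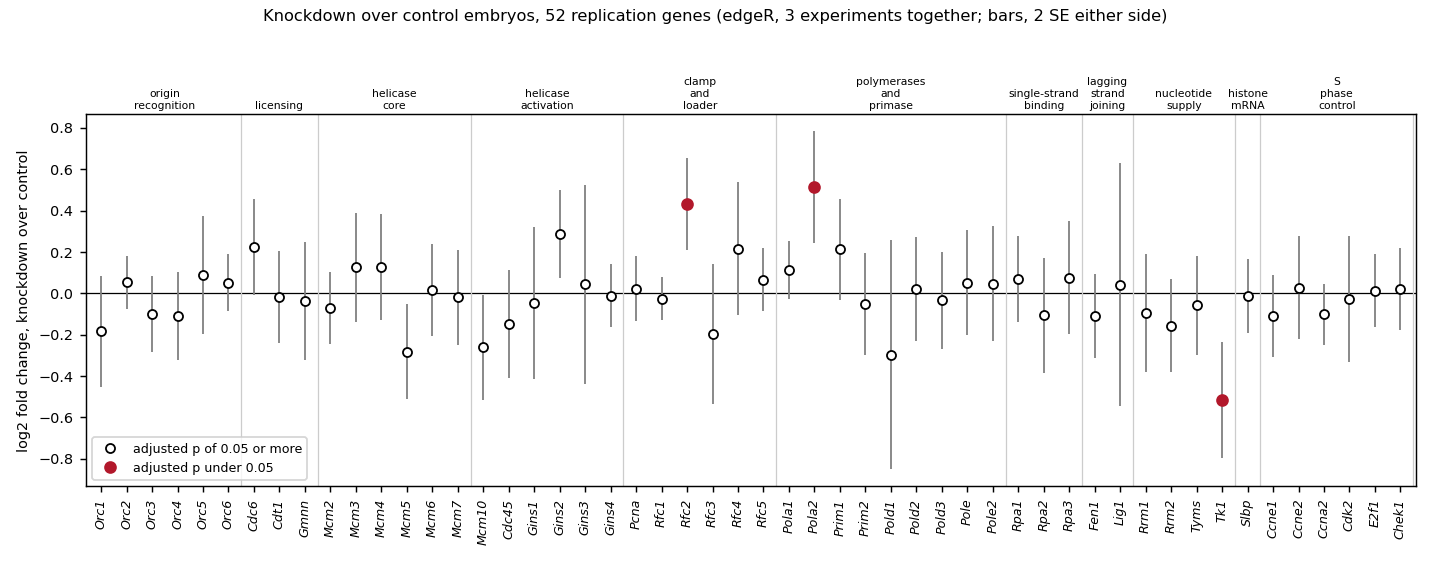
Log2 fold change of knockdown over control embryos for each member by replication step, with bars of 2 SE on either side; filled points passed the test over all genes. Tk1 lies at -0.52, Pola2 at 0.51 and Rfc2 at 0.43, and the other 49 members are open points nearer to 0.

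Tk1 (ENSMUSG00000025574, chromosome 11, 117815526 to 117826092, minus strand, GRCm38) was lower in knockdown embryos of experiments 1 and 3. In experiment 1 it ran from 50.8 to 295 CPM with a median of 108 in knockdown embryos, against 58.4 to 467 CPM with a median of 183 in control embryos. In experiment 2 the range was 83.1 to 271 CPM with a median of 193 in knockdown embryos and 30.4 to 293 CPM with a median of 190 in control embryos. In experiment 3 it was 45.1 to 293 CPM with a median of 126 in knockdown embryos and 75.5 to 292 CPM with a median of 215 in control embryos. The arms overlapped in every experiment, and 40 of 55 knockdown embryos lay below the control median of their own experiment. Over all embryos Tk1 averaged 143 ± 68.3 CPM (SD, n = 55) in knockdown and 196 ± 87.1 CPM (SD, n = 56) in control embryos, and it fell by 0.52 on the log2 scale (SE 0.14, edgeR adjusted p = 0.036). The protein-coding transcript Tk1-201 carried 92.3% of its counts in knockdown and 94.7% in control embryos. It had a median of 123 CPM in knockdown embryos, from 42.0 to 275, against 189 CPM in control embryos, from 27.8 to 428, and -0.56 ± 0.14 on the log2 scale (fold change ± SE; edgeR, adjusted p = 0.042), the only one called of 129 member transcripts tested, where 0.329% of all 25216 transcripts were called. The authors' deposited table gave -0.50 for it with an adjusted p of 0.047. Without the 3 embryos apart the gene's log2 fold change was -0.46 (edgeR adjusted p = 0.079), and with the mitochondrial share as a term -0.43 (edgeR adjusted p = 0.16).

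Pola2 (ENSMUSG00000024833, chromosome 19, 5940542 to 5964202, minus strand, GRCm38) was higher in knockdown embryos of experiments 1 and 3, and its control embryos differed most between experiments. In experiment 1 it ran from 121 to 521 CPM with a median of 268 in knockdown embryos, against 59.2 to 441 CPM with a median of 119 in control embryos. In experiment 2 the range was 73.2 to 770 CPM with a median of 247 in knockdown embryos and 186 to 540 CPM with a median of 318 in control embryos. In experiment 3 it was 122 to 832 CPM with a median of 301 in knockdown embryos and 81.5 to 505 CPM with a median of 195 in control embryos. All 16 knockdown embryos of experiment 1 lay above the control median of that experiment, as did 4 of 16 in experiment 2 and 20 of 23 in experiment 3. Pola2 averaged 305 ± 152 CPM (SD, n = 55) in knockdown and 212 ± 125 CPM (SD, n = 56) in control embryos and rose by 0.51 on the log2 scale (SE 0.14, edgeR adjusted p = 0.030). Of all members its level had the highest correlation with the mitochondrial transcripts across embryos (Pearson's r = 0.47, Spearman's rho = 0.42, all embryos), and with the mitochondrial share as a term the log2 fold change was 0.37 (edgeR adjusted p = 0.19). Without the 3 embryos apart it was 0.47 (edgeR adjusted p = 0.069), and without experiment 1 it was 0.26 (edgeR adjusted p = 0.95).

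Nearly all Pola2 counts went to a transcript with another 3′ end than the standard one. Pola2-202 held 97.5% of them in knockdown and 96.3% in control embryos, and Pola2-201, the standard form, held 1.76% and 2.64%. Pola2-202 shares 17 of its 18 exons with Pola2-201 and ends in another last exon, at chr19:5941107-5941552 in place of chr19:5940542-5941017 (GRCm38, minus strand). The coding part of each last exon is printed in lower case with the stop codon in capitals, 5′ to 3′, because it shows how the encoded ends differ.
Pola2-202: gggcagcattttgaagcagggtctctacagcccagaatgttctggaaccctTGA
Pola2-201: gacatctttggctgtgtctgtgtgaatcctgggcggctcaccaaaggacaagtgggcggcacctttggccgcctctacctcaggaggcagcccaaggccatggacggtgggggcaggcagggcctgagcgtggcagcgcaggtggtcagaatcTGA
The alternative exon adds 51 coding bases before its stop codon and the standard one 153. Pola2-202 had a median of 271 CPM in knockdown embryos, from 68.1 to 877, against 182 CPM in control embryos, from 50.9 to 543, and its log2 fold change of 0.52, with an SE of 0.14, missed the threshold of the transcript test (edgeR adjusted p = 0.085). Pola2-201 had a median of 5.44 CPM in knockdown and 5.61 CPM in control embryos and -0.13 ± 0.14 on the log2 scale (fold change ± SE; edgeR, adjusted p = 0.9999). In the authors' deposited table Pola2-202 had a log2 fold change of 0.53 with an adjusted p of 0.047.

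Rfc2 (ENSMUSG00000023104, chromosome 5, 134581366 to 134601805, plus strand, GRCm38) had a higher median in knockdown than in control embryos in each experiment, at a low level. In experiment 1 it ran from 10.4 to 35.8 CPM with a median of 17.3 in knockdown embryos, against 3.01 to 24.6 CPM with a median of 13.7 in control embryos. In experiment 2 the range was 6.33 to 24.2 CPM with a median of 17.5 in knockdown embryos and 10.7 to 30.7 CPM with a median of 15.5 in control embryos. In experiment 3 it was 11.1 to 59.7 CPM with a median of 21.8 in knockdown embryos and 8.02 to 29.1 CPM with a median of 15.5 in control embryos. The arms overlapped throughout, with 12 of 16, 12 of 16 and 20 of 23 knockdown embryos above the control median in experiments 1, 2 and 3. Rfc2 averaged 20.7 ± 8.76 CPM (SD, n = 55) in knockdown and 15.3 ± 5.87 CPM (SD, n = 56) in control embryos and rose by 0.43 on the log2 scale (SE 0.11, edgeR adjusted p = 0.024). The protein-coding Rfc2-201 held 42.1% of the counts in knockdown and 46.1% in control embryos, and the rest went mainly to the retained-intron transcripts Rfc2-205, with 37.8% and 33.3%, and Rfc2-204, with 17.2% and 17.0%. Their log2 fold changes were 0.30 for Rfc2-201, 0.59 for Rfc2-205 and 0.48 for Rfc2-204, with edgeR adjusted p-values of 0.76, 0.081 and 0.59.

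The libraries do not record the strand, and 952 bases of Rfc2 exons overlap exons of Lat2 on the other strand, so reads of the pair cannot be told apart there. Lat2 averaged 32.8 CPM over all embryos and had 0.02 ± 0.24 on the log2 scale (fold change ± SE; edgeR, adjusted p = 0.996). Tk1 overlaps Afmid on the other strand by 83 exon bases, and Afmid, at 26.7 CPM, had -0.16 ± 0.18 on the log2 scale (fold change ± SE; edgeR, adjusted p = 0.90). Without the 3 embryos apart Rfc2 had a log2 fold change of 0.41 (edgeR adjusted p = 0.051), and with the mitochondrial share as a term 0.39 (edgeR adjusted p = 0.084).

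**Figure D3:**
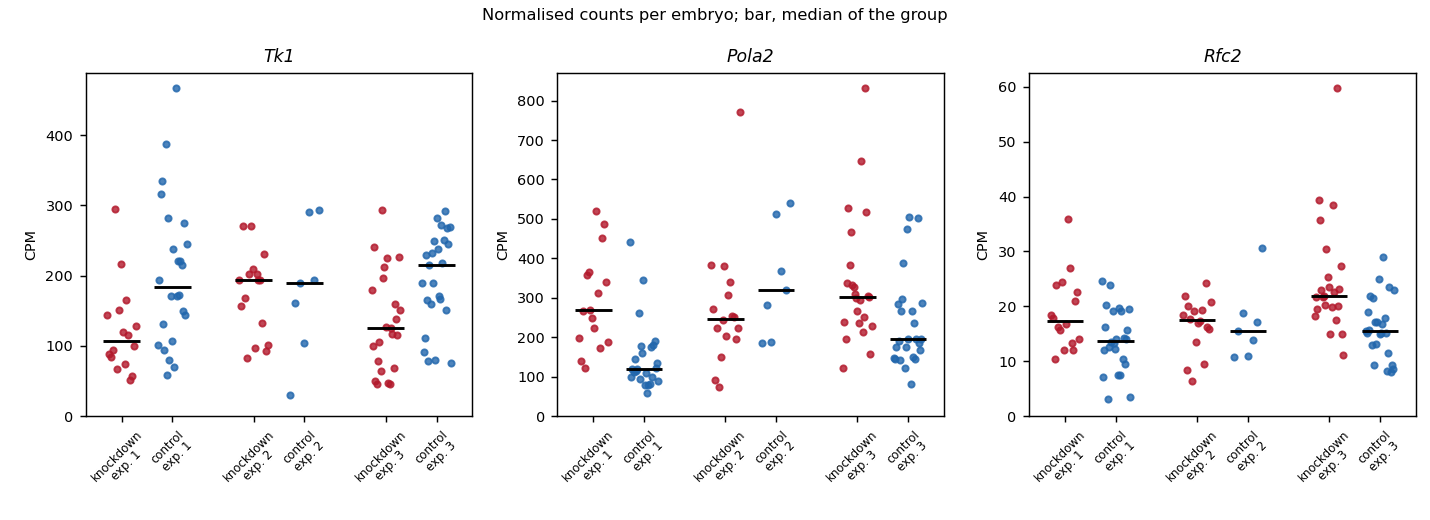
CPM of Tk1, Pola2 and Rfc2 in each embryo, with knockdown (red) left of control (blue) in each of the 3 experiments and a bar at the group's median. The arms overlap in every experiment, and the control embryos of experiment 1 have the lowest Pola2 median, 119 CPM.

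None of the other steps held a called member. In origin recognition the smallest p was that of Orc1, the largest subunit, with -0.18 ± 0.13 on the log2 scale (fold change ± SE; edgeR, adjusted p = 0.78), and in licensing that of Cdc6, with 0.22 (SE 0.12, edgeR adjusted p = 0.55). In the helicase core it was Mcm5 with -0.28 (SE 0.11, edgeR adjusted p = 0.32), and in helicase activation Gins2 with 0.29 (SE 0.11, edgeR adjusted p = 0.24), for which 45 of 55 knockdown embryos lay above the control median of their experiment. Gins2 shares 2758 exon bases with Gse1 on the other strand. For Rpa2, Fen1, Slbp and Ccna2 the log2 fold changes were -0.11, -0.11, -0.01 and -0.10, with SEs of 0.14, 0.10, 0.09 and 0.07. Their edgeR adjusted p-values were 0.92, 0.86, 0.99 and 0.77. In nucleotide supply all 4 members had a negative sign, with a median of -0.13, and only Tk1 passed.

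The CPM of the members of a step were also summed in each of the 6 groups, as a description without a test. In nucleotide supply the sum was 415 ± 172 CPM (SD, n = 16) in knockdown and 555 ± 206 CPM (SD, n = 24) in control embryos of experiment 1. It was 586 ± 134 CPM (SD, n = 16) in knockdown and 565 ± 206 CPM (SD, n = 7) in control embryos of experiment 2, and 509 ± 207 CPM (SD, n = 23) and 603 ± 185 CPM (SD, n = 25) in experiment 3. In all 3 experiments these means lay within 1 SD of each other. The 9 polymerase and primase genes summed to 846 ± 97.0 CPM in knockdown and 729 ± 132 CPM in control embryos of experiment 1, to 801 ± 155 and 905 ± 159 CPM in experiment 2, and to 968 ± 289 and 796 ± 148 CPM in experiment 3, with the same numbers of embryos. The difference in experiment 1 was larger than the SD of the knockdown embryos, and that in experiment 3 larger than the SD of the control embryos. Pola2, described above, is part of this sum and was the only one of the 9 called in the pooled test. Of the 9 pooled log2 fold changes 6 were positive and 3 negative, with a median of 0.05. The sums therefore do not show a difference of the step apart from Pola2. The 6 helicase subunits summed to 548 ± 139 CPM in knockdown and 597 ± 123 CPM in control embryos of experiment 1, to 751 ± 127 and 652 ± 145 CPM in experiment 2, and to 594 ± 180 and 595 ± 119 CPM in experiment 3.

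Whether the knockdown effect differed between the experiments was tested with the terms of treatment by experiment. By edgeR 0 of 52 members were called and by limma-voom 0, where edgeR called 0.0149% of all genes, with 2 members at an unadjusted p under 0.05. Pola2 had an unadjusted p of 0.0030 in this test and an edgeR adjusted p of 0.51, so a difference was not shown. Within experiment 1 only Pola2 was called, with 0.97 ± 0.22 on the log2 scale (fold change ± SE; edgeR, adjusted p = 0.0054), where 0.968% of all genes were called. Within experiment 2, with 7 control embryos, edgeR and limma-voom called 0 members and edgeR 0.0% of all genes, with 2 members at an unadjusted p under 0.05 and a Pola2 log2 fold change of -0.33 (SE 0.30). Within experiment 3 both called 0 members and edgeR 0.127% of all genes, with 5 members at an unadjusted p under 0.05, Pola2 at 0.52 (SE 0.20) and Rfc2 at 0.62 (SE 0.16). In data simulated on these libraries the same test called 56% of genes changed by 1.5-fold in the pooled comparison, and 10%, 1% and 24% within experiments 1, 2 and 3.

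Some members also differed between control embryos of different experiments, but they were not called clearly more often than all genes. The control groups are shared among these contrasts, and the labels do not say in what the experiments differed. In control embryos of experiment 1 against experiment 3, 4 of 52 members were called, where 9.35% of all genes were. E2f1, the S phase transcription factor, ran from 40.2 to 158 CPM with a median of 74.6 in experiment 1 and from 28.0 to 72.3 CPM with a median of 48.6 in experiment 3, 0.83 ± 0.13 on the log2 scale (fold change ± SE; edgeR, adjusted p = 2.4e-06). Slbp had medians of 329 and 431 CPM and -0.42 ± 0.13 on the log2 scale (fold change ± SE; edgeR, adjusted p = 0.024). Ccne2 had medians of 40.9 and 74.1 CPM and -0.56 ± 0.18 on the log2 scale (fold change ± SE; edgeR, adjusted p = 0.036), and Pola2 had medians of 119 and 195 CPM and -0.67 ± 0.20 on the log2 scale (fold change ± SE; edgeR, adjusted p = 0.018). The ranges of the control groups overlapped for each of these 4 genes.

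Against experiment 3, the control embryos of experiment 2 were lower in Ccne2, with a median of 31.4 against 74.1 CPM and -1.05 ± 0.30 on the log2 scale (fold change ± SE; edgeR, adjusted p = 0.041). It was the 1 member called there, where 1.59% of all genes were. In control embryos of experiment 1 against experiment 2, Pola2 was the 1 member called, with medians of 119 and 318 CPM and -1.20 ± 0.27 on the log2 scale (fold change ± SE; edgeR, adjusted p = 0.0020), where 4.91% of all genes were. For E2f1 and Ccne2 the order of the medians over the experiments was the same in both arms, and for Slbp and Pola2 it was not. E2f1 had knockdown medians of 76.6, 72.4 and 47.2 CPM in experiments 1, 2 and 3, beside control medians of 74.6, 67.9 and 48.6 CPM. Ccne2 had knockdown medians of 52.9, 23.4 and 62.2 CPM, beside control medians of 40.9, 31.4 and 74.1 CPM. Slbp had knockdown medians of 388, 301 and 377 CPM, beside control medians of 329, 305 and 431 CPM. For Pola2 the knockdown medians were 268, 247 and 301 CPM, which span less than the control medians of 119, 318 and 195 CPM.

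**Figure D4:**
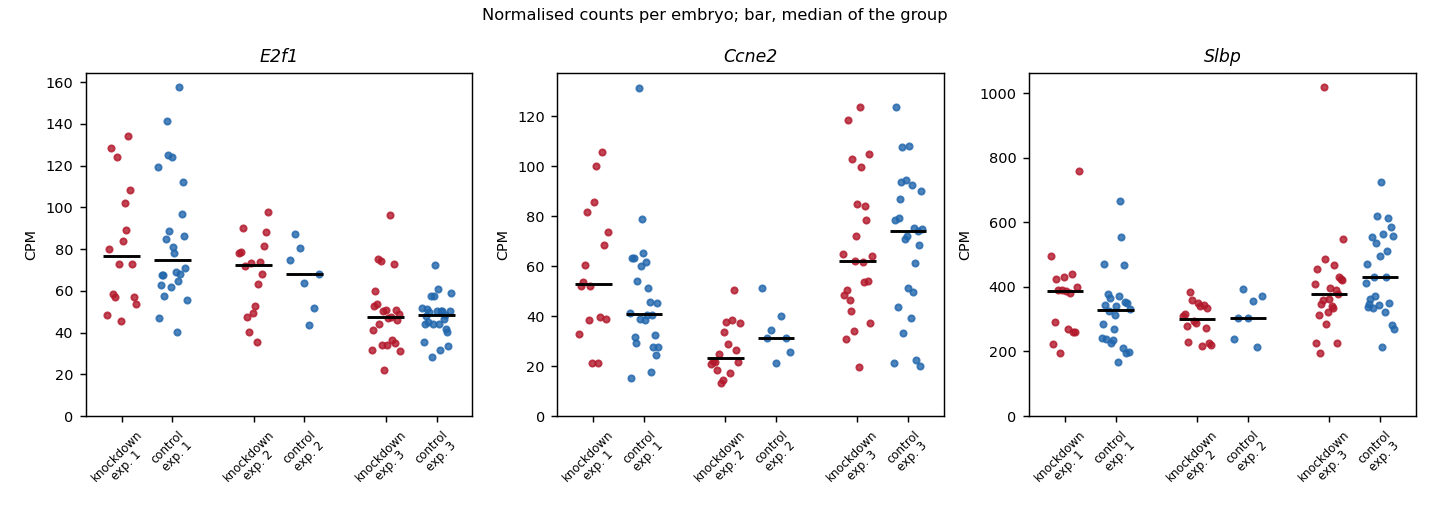
CPM of E2f1, Ccne2 and Slbp in each embryo, with knockdown (red) left of control (blue) in each experiment and a bar at the group's median. E2f1 is highest in experiment 1 and lowest in experiment 3 in both arms, with control medians of 74.6 and 48.6 CPM, and Ccne2 is lowest in experiment 2, with a control median of 31.4 CPM.

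A second list held 91 further gene names of replication and S phase, such as the origin-firing kinase Cdc7, checkpoint adaptors, other polymerase subunits and nucleotide enzymes. Hbo1 and Kat7 on it are names of the same gene. Of the names 90 were in the table and 86 were tested. Dtl was lower and 0 were higher, 1 of 86 against the 1.12% of all genes. Dtl, the receptor through which the CRL4 ubiquitin ligase marks Cdt1 for destruction in S phase, had a median of 156 CPM in knockdown embryos, from 39.9 to 289, against 190 CPM in control embryos, from 81.5 to 366. It fell by 0.44 on the log2 scale (SE 0.10, edgeR adjusted p = 0.0046), with 44 of 55 knockdown embryos below the control median of their experiment. It was called without the 3 embryos apart (-0.38, edgeR adjusted p = 0.011) and not without experiment 1 (-0.39, edgeR adjusted p = 0.29) or experiment 3 (-0.39, edgeR adjusted p = 0.20). The RNA of Cdt1 had medians of 144 TPM in knockdown and 141 TPM in control embryos, and its protein was not measured. Within experiment 1, 2 of the 86 genes were called, both higher, where 0.968% of all genes were called, and they are named here after their values were seen. Atrip, the partner of the checkpoint kinase Atr, and Poldip2, a polymerase delta interacting protein, were higher in knockdown embryos by 0.79 (SE 0.20, edgeR adjusted p = 0.019) and 0.73 (SE 0.20, edgeR adjusted p = 0.044) on the log2 scale. In the control embryos of experiment 1 against those of experiment 3, 7 of the 86 genes were called higher and 5 lower, where 9.35% of all genes were called. Atrip and Poldip2 were among the 5, with log2 fold changes of -0.53 (SE 0.18, edgeR adjusted p = 0.043) for Atrip and -0.55 (SE 0.18, edgeR adjusted p = 0.039) for Poldip2.

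Some members varied together between embryos of the same group. For each member log2 CPM was centred on its group and correlated across all embryos, as a description without a test. Over the 1326 pairs the median Pearson's r was 0.07, with 150 pairs above 0.5 (11.3%) and 43 below -0.5 (3.24%). Over all pairs of the genes tested 4.59% were above 0.5 and 3.71% below -0.5. The highest was that of Cdc45 and Cdk2 (r = 0.84, rho = 0.81), followed by Gmnn and Tk1 (r = 0.79, rho = 0.77). Cdc45 and Cdk2 kept r = 0.78 without the 2 embryos farthest from the median, and within the 6 groups r ran from 0.59 to 0.95. The lowest was that of Orc5 and Cdc45 (r = -0.69, rho = -0.74), while Orc5 went with Chek1 (r = 0.71, rho = 0.63) and Pold3 (r = 0.70, rho = 0.71). All points share the library and its scaling, so a gain in 1 abundant RNA lowers the CPM of others.

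Several members also varied with the level of oocyte markers, genes whose RNA the oocyte stores. The summed CPM of the 9 oocyte markers, which include Gdf9, Bmp15 and the zona pellucida genes, ran from 802 to 12547 CPM with a median of 1880 in knockdown embryos and from 1107 to 5726 CPM with a median of 2085 in control embryos. Of 52 members 16 had r under -0.5 with this sum (30.8%) and 5 had r over 0.5 (9.62%), where 17.5% of all genes had r under -0.5 and 15.6% over 0.5. Embryos with more oocyte RNA had less Cdc45 (r = -0.78, rho = -0.72), Cdk2 (r = -0.74, rho = -0.68), Mcm7 (r = -0.71, rho = -0.69) and Tk1 (r = -0.60, rho = -0.62). They had more Orc5 (r = 0.83, rho = 0.82), Chek1 (r = 0.76, rho = 0.67), Pold3 (r = 0.62, rho = 0.60), Rfc5 (r = 0.59, rho = 0.46) and Rpa1 (r = 0.56, rho = 0.53). Within the 6 groups r for Cdc45 ran from -0.86 to -0.51 and for Orc5 from 0.69 to 0.93. Without the 2 embryos farthest from the median it was -0.74 for Cdc45 and 0.82 for Orc5, and without the 3 embryos apart 10 members were under -0.5 (19.2%) and 6 over 0.5 (11.5%), where 13.3% and 13.6% of all genes were. Subunits of 1 complex lay at opposite ends, such as Rpa2 (r = -0.67) and Rpa1. Orc3 (r = -0.69) and Orc5 did so too, but nearly all Orc3 counts came from a processed transcript. The r of Orc3 is therefore not one of its protein-coding RNA.

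**Figure D5:**
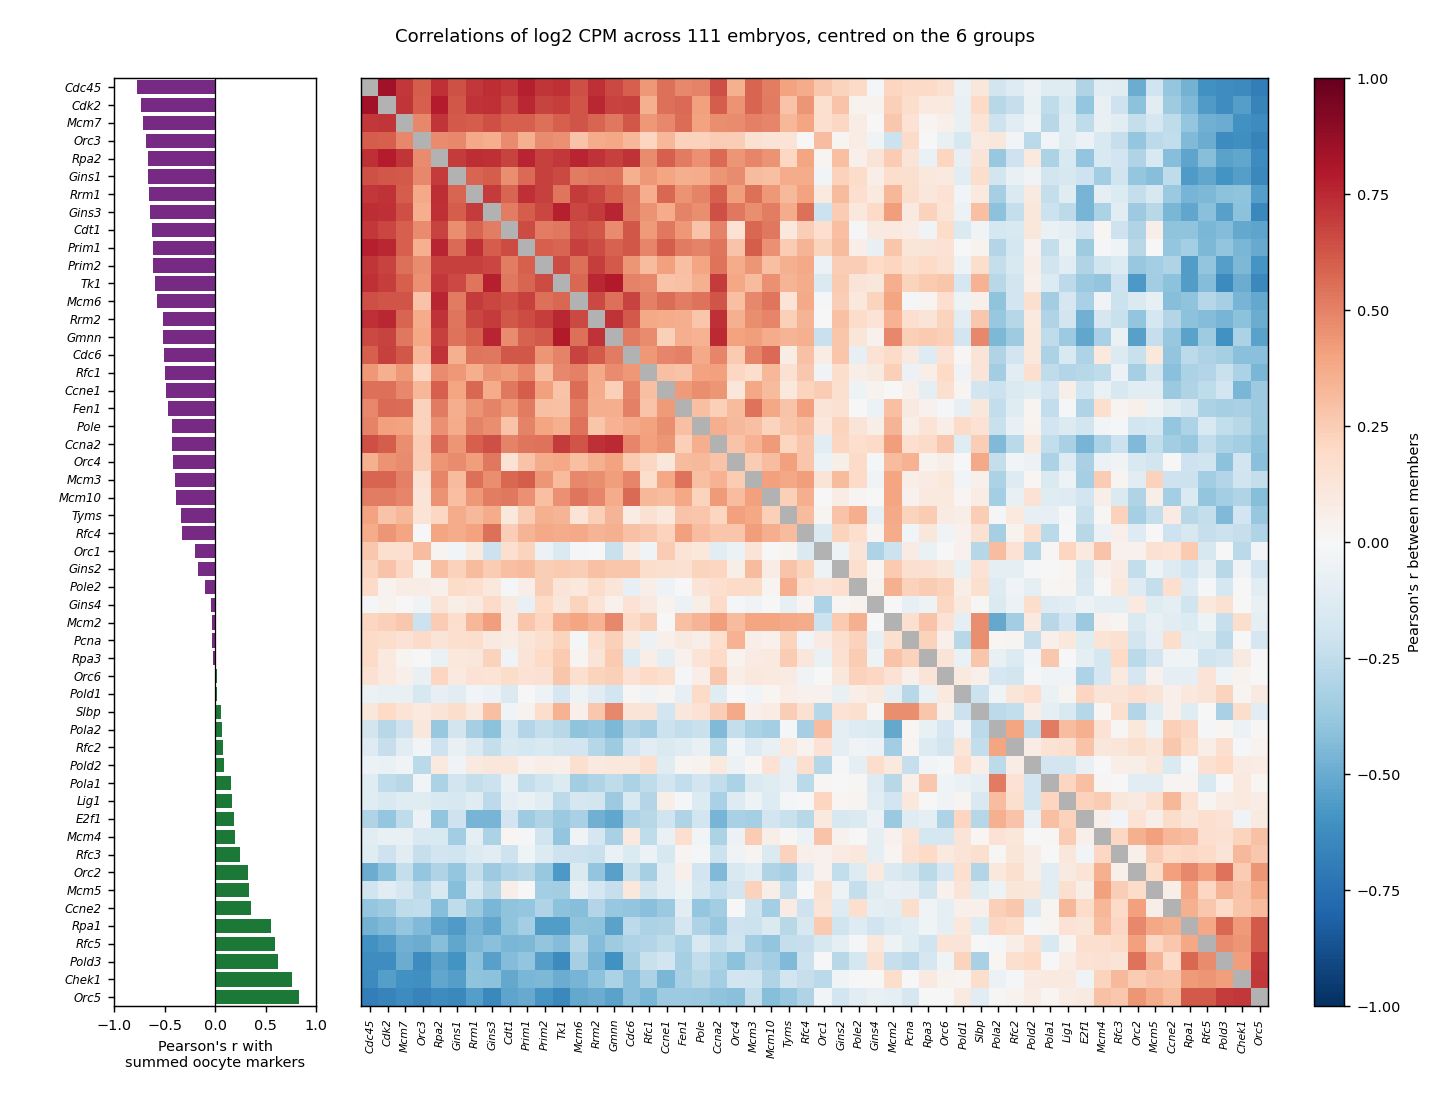
Left, Pearson's r of each member's group-centred log2 CPM with the summed oocyte markers across the 55 knockdown and 56 control embryos; right, r between members in the same order. Members at the top, from Cdc45 downwards, correlate positively with each other and negatively with Orc5, Chek1 and Pold3 at the bottom, and Tk1 is in the upper block while Pola2 and Rfc2 lie outside both blocks.

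The 3 called members differed in these correlations. Pola2 and Rfc2 had r of 0.07 each with the oocyte markers. Pola2 varied with Pola1, the catalytic subunit it binds (r = 0.52, rho = 0.46), and with Rfc2 (r = 0.39, rho = 0.38). It varied inversely and about as closely with Mcm2 (r = -0.52, rho = -0.46) and Gmnn (r = -0.45, rho = -0.36). Against the summed markers of the 2-cell stage, such as the Zscan4 genes, Orc1 had the highest r (0.61, rho = 0.64) and Gins3 the lowest (-0.72, rho = -0.75), and Tk1 had -0.63 (rho = -0.70). The library total had r between -0.14 and 0.22 with every member. The 3 embryos apart had oocyte marker sums of 12547, 7717 and 4541 CPM in embryos 8, 5 and 15, and their part in the difference between the arms is given by the values without them above.

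The spread of the members was close to that of other genes. The SD of group-centred log2 CPM had a median of 0.63 over the members, and 24 of 52 lay above the median SD of genes of like level. Rfc1, the large subunit of the clamp loader, varied least, with an SD of 0.24 against 0.59 for genes of like level. Gins3 had an SD of 1.36 against 0.63 and Lig1, at few counts, 1.62 against 1.05. Exons pooled over all annotated Mcm7 transcripts, which need not be exons of the coding form, hold the miRNA genes Mir93 and Mir25. Pcna has a processed copy, Pcna-ps2, at 22.0 CPM. Some reads of these members are therefore uncertain.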

How the data were processed

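The main deposited table holds 1 estimated count (expected count) per transcript and embryo, without normalization. Per the submitters' processing notes, kallisto 0.46.1 was used along with Trim Galore 0.6.2, DESeq2 1.32.0, bcl2fastq and R 3.5.1. The notes name the builds hg19 and mm10 and do not say what each served for. The release of the transcript annotation was not given in the sources used here. Per the labels, libraries followed the SmartSeq2 protocol with oligo dT priming, so they carry no molecular identifiers and no strand. The authors' batch-adjusted, rounded values were read as a score, as an alternative only. Log2 fold changes and adjusted p-values of the authors' deposited table came from DESeq2 per transcript.

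The 119358 transcript rows were summed to genes by the gene names of the authors' deposited table. The 2076 rows without a gene, a median of 0.814% of the counts, stayed out of library sizes and tests. They include 6 rows that GENCODE M21 gives to Lig1, 0.0349% of all member counts. Sums were rounded and tested with edgeR 4.0.16 in R 4.3.3: filterByExpr by arm, TMM, the quasi-likelihood F-test with experiment as a factor (107 residual degrees of freedom, biological coefficient of variation 0.617) and Benjamini-Hochberg adjustment over 13426 genes. Contrasts within experiments and between control groups came from a fit of 6 groups. Each SE is the fold change divided by the root of its F statistic. Positions and transcript lengths are those of GENCODE M21. The fits were tested on simulated data, in which 86% of genes changed by 2-fold were called in the pooled comparison.

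Arms came from the treatment label and experiments from the title. The design text names 55 knockdown and 57 control embryos, of which 55 and 56 were analysed here. Shared parentage of embryos is not stated in the labels, and p-values therefore rest on the variation from embryo to embryo. No libraries were identical, and the highest correlation between 2 of them was 0.938. The members and lists were chosen with earlier results of these data known. Test values are given for Nr5a2, for genes of both lists called in the pooled comparison, for members called in other contrasts, for the member with the smallest p in each step, for transcripts of members called in the pooled comparison and for a few genes picked after their values were seen. Levels are given for the highest and lowest member of a step and for further members picked after their values were seen. Alternatives were DESeq2 1.42.0, limma-voom (limma 3.58.1), other scalings, no filter, left-out experiments, a block by embryo number, further terms and the batch-adjusted values as log2(value + 1). Leaving out the 3 embryos that stood apart was chosen after seeing the data.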

Additional observations from a re-analysis of the deposited data

Results flagged for a closer look

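In the 7 control embryos of experiment 2, the only group small enough for the check, 8 of 52 members had 1 embryo far from the rest by Dixon's test. The nominal rate of about 1 in 20 per gene is no yardstick for this count, because the members come from the same 7 libraries and vary together. The CPM below are not on the scale of the test, since on them the Gmnn gap would not reach the critical ratio of 0.568. Embryo 2 accounts for 6 of them. It was the lowest for Gmnn at 70.3 CPM (the next was at 156), for Cdc45 at 87.0 CPM (310), for Rrm1 at 30.9 CPM (78.3), for Rrm2 at 108 CPM (244) and for Ccna2 at 566 CPM (1014), and the highest for Chek1 at 175 CPM (123). The same embryo had the smallest library of its group, 2.15 M counts against 3.45 to 4.05 M, and the highest oocyte marker sum, 3875 CPM against 1330 to 2305 CPM, and their part in these values was not tested. Pole was lowest in embryo 6 at 23.9 CPM (34.5). Lig1 was at 0 in embryo 3, where 0 counts allow up to 3 counts or 0.740 CPM, and at 3.86 CPM or more in the others.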

How the results depend on the processing

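The pooled count of 3 called members was 1 with library totals, 0 without experiment 1, 0 without experiment 3, 0 with the mitochondrial share as a term and 0 without the 3 embryos apart, and it stayed within 1.5 times of 3 under the other alternatives but the block below. Of 29 fold changes of named genes recomputed, 3 changed sign, none of them called: Rpa2 was at 0.013 without experiment 1, Slbp at 0.11 without experiment 3, and Lat2 at -0.32 with limma-voom, -0.027 without experiment 2, -0.12 with the replicate block and -0.26 in the authors' batch-adjusted values. Between control embryos of experiments 1 and 3 the calls of Atrip and Poldip2 were lost under 2 and 1 of 5 alternatives. Over 13 alternatives Tk1 ran from -0.62 to -0.40, Pola2 from 0.26 to 0.71 and Rfc2 from 0.30 to 0.54 on the log2 scale, each not called in 6 of them, with edgeR, limma or DESeq2 adjusted p-values of 0.011 to 0.62, 0.0012 to 0.95 and 0.0072 to 0.63. Dtl ran from -0.50 to -0.38 and was not called in 3, and Nr5a2 was called in all 13. The second list's count of 1 was 2 without a low-count filter and by DESeq2, 3 without experiment 2, and 0 without experiment 1 or experiment 3. Transcripts called were 6 without a filter in place of 1, and members within experiment 3 were 1 (Rfc2) in place of 0. For control embryos of experiment 2 against 3 the count was 0 with DESeq2-type size factors and with limma-voom in place of 1, and for experiment 1 against 2 it was 2 with limma-voom and with DESeq2. Ccne2 between control embryos of experiments 1 and 3 had an adjusted p of 0.054 with DESeq2-type size factors in edgeR.

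Embryo numbers recur in both arms, but nothing in the labels says that they pair embryos. Deviations of same-numbered embryos had median correlations of 0.03, 0.01 and 0.06 in experiments 1 to 3, above 0.1 in 6 of 16, 2 of 7 and 8 of 23 pairs. Pairs of unlike number had medians of -0.01, -0.004 and 0.01, above 0.1 in 122 of 368, 28 of 105 and 193 of 552 pairs. These values show no clear pairing, but so few same-numbered pairs cannot exclude shared handling. With the embryo number as a replicate block 0 members and 0 genes of the second list were called by edgeR, 5 members had an unadjusted p under 0.05, with 9 lower and 14 higher genes over all.

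Within experiment 2 the test called 9% of simulated 2-fold changes, so a missing call there does not show that a member was equal in both arms. The lowest members, Pold1 and Lig1, had medians of 17 and 39 counts per embryo.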

Other observations

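Members with E2F letters were counted by their correlation with the oocyte markers. Of the 16 members with r under -0.5 against the oocyte marker sum, 13 had a promoter window and 11 of these held E2F letters. Of the 31 members between -0.5 and 0.5, 24 had a window and 13 held them, and of the 5 members above 0.5, all 5 had a window and 2 held them. These are counts chosen after the values were seen, with no test.

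The correlations were also computed in each group taken alone. The number of members with r under -0.5 was 12 in knockdown and 4 in control embryos of experiment 1, 13 and 20 in experiment 2, and 26 and 13 in experiment 3, with groups of unequal size. As shares of the 52 members these are 23.1% and 7.69%, 25.0% and 38.5%, and 50% and 25%, where 17.8% and 6.52%, 15.3% and 25.6%, and 28.5% and 17.2% of all genes had r under -0.5 in the same groups. Against Nr5a2 itself the members' r had a median of 0.04, with Ccne1 highest (r = 0.50, rho = 0.53) and Chek1 lowest (r = -0.52, rho = -0.45) across all embryos.

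A further member transcript passed in the authors' deposited table, Prim2-202, an annotated retained intron of the large primase subunit gene, with a log2 fold change of 0.36 and an adjusted p of 0.0041. In the fit made here it had 0.28 on the log2 scale (edgeR adjusted p = 0.24), and Prim2-201, which held most of the counts, had -0.16.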
